A study of Homo sapiens with 12 samples.

Results

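Protease inhibitors of epithelial cells were followed in a pair of human pancreatic cancer lines with and without PMA. The 10 genes, of 19775 genes with a probe set on the arrays, were chosen by symbol, with earlier results of these data known. They comprise 5 clade B serpins (SERPINB1, SERPINB5, SERPINB7, SERPINB8, SERPINB9), the Kunitz inhibitor TFPI2, the WAP-domain inhibitors PI3 and SLPI, and the stefins CSTA and CSTB. They had 20 probe sets, and for each gene the one with the highest mean over the 12 arrays is used here. All 10 passed the filter on low signal (above the 40th percentile of an array on at least 3 arrays), CSTA, SERPINB7 and TFPI2 through the BxPC-3 arrays alone.

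The 12 arrays formed 4 groups of 3: BxPC-3 cells given PMA (1 µM, 4 h), untreated BxPC-3 cells, AsPC-1 cells given the same PMA, and untreated AsPC-1 cells. BxPC-3 was derived from a primary tumour and AsPC-1 from ascites, so each kind of origin is represented by 1 line. All cells spent the night before in low serum, and PMA, a phorbol ester that activates protein kinase C, was dissolved in DMSO. Whether control cultures received DMSO is not stated in the labels. The replicates of a group were separate passages (7, 9 and 11 in BxPC-3, 8, 10 and 12 in AsPC-1), shared by the treated and untreated cells of a line.

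Protease inhibitors limit the proteases that epithelia make themselves and those that leukocytes release. Serpins trap a serine or cysteine protease in a covalent complex, and the clade B members lack a classical signal peptide and act mostly inside the cell. WAP and Kunitz inhibitors are small secreted proteins that plug the active site, and stefins are cytosolic inhibitors that block papain-like cathepsins reversibly.

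The values are array signals of bulk RNA, in which fewer cells expressing a gene and less RNA per cell cannot be told apart. They are in arbitrary units and comparable between arrays for the same gene but not between genes. AsPC-1 PMA replicate 1 stood apart: its mean correlation across genes was 0.921 with the other AsPC-1 PMA arrays, against 0.964 with the untreated array of its passage, so results that rest on it are also given without it. The untreated array of that passage, 8, also had a lower correlation with its own group, 0.95. Whether passage 8 as a whole stood apart was not tested. The ACTB control probe sets had 3′/5′ ratios of 1.84, 1.99 and 2.02 on the BxPC-3 PMA arrays, against 2.56, 2.95 and 4.14 on the untreated BxPC-3 arrays, so the ACTB ratio was lower after PMA in BxPC-3. The GAPDH ratios of these groups were 1, 1.07 and 1.02 after PMA, against 1.04, 1.06 and 1.12 untreated. The part of these ratios in the results below was not tested. The 6 epithelial markers (EPCAM, CDH1, KRT7, KRT8, KRT18, KRT19) were above the 40th percentile on all 12 arrays. Of 6 leukocyte markers, PTPRC was above it on 1 array, ELANE on 2, ITGAM on 9, CD3E and MPO on 11 and CD14 on 12. Of 5 fibroblast markers, PDGFRB was above it on 1 array, COL1A2 on 3, COL1A1 on 6, COL3A1 on 7 and DCN on 11. Of 3 endothelial markers, CDH5 was above it on 1 array, VWF on 4 and PECAM1 on 12. The part of these markers in the results was not tested. The summed signal of 6 leukocyte markers was 53.1 to 81.6 in BxPC-3 PMA and 46.7 to 63.7 in untreated BxPC-3 arrays, and 86.2 to 98.1 in AsPC-1 PMA and 108 to 122 in untreated AsPC-1 arrays. The sum of 5 fibroblast markers was 182 to 239 in BxPC-3 PMA and 159 to 199 in untreated BxPC-3, and 27.9 to 57.9 in AsPC-1 PMA and 24.8 to 48.4 in untreated AsPC-1. The sum of 3 endothelial markers was 45.7 to 69.2 in BxPC-3 PMA and 37.2 to 56.7 in untreated BxPC-3, and 32.5 to 46.6 in AsPC-1 PMA and 25.5 to 48.6 in untreated AsPC-1.

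**Figure D1:**
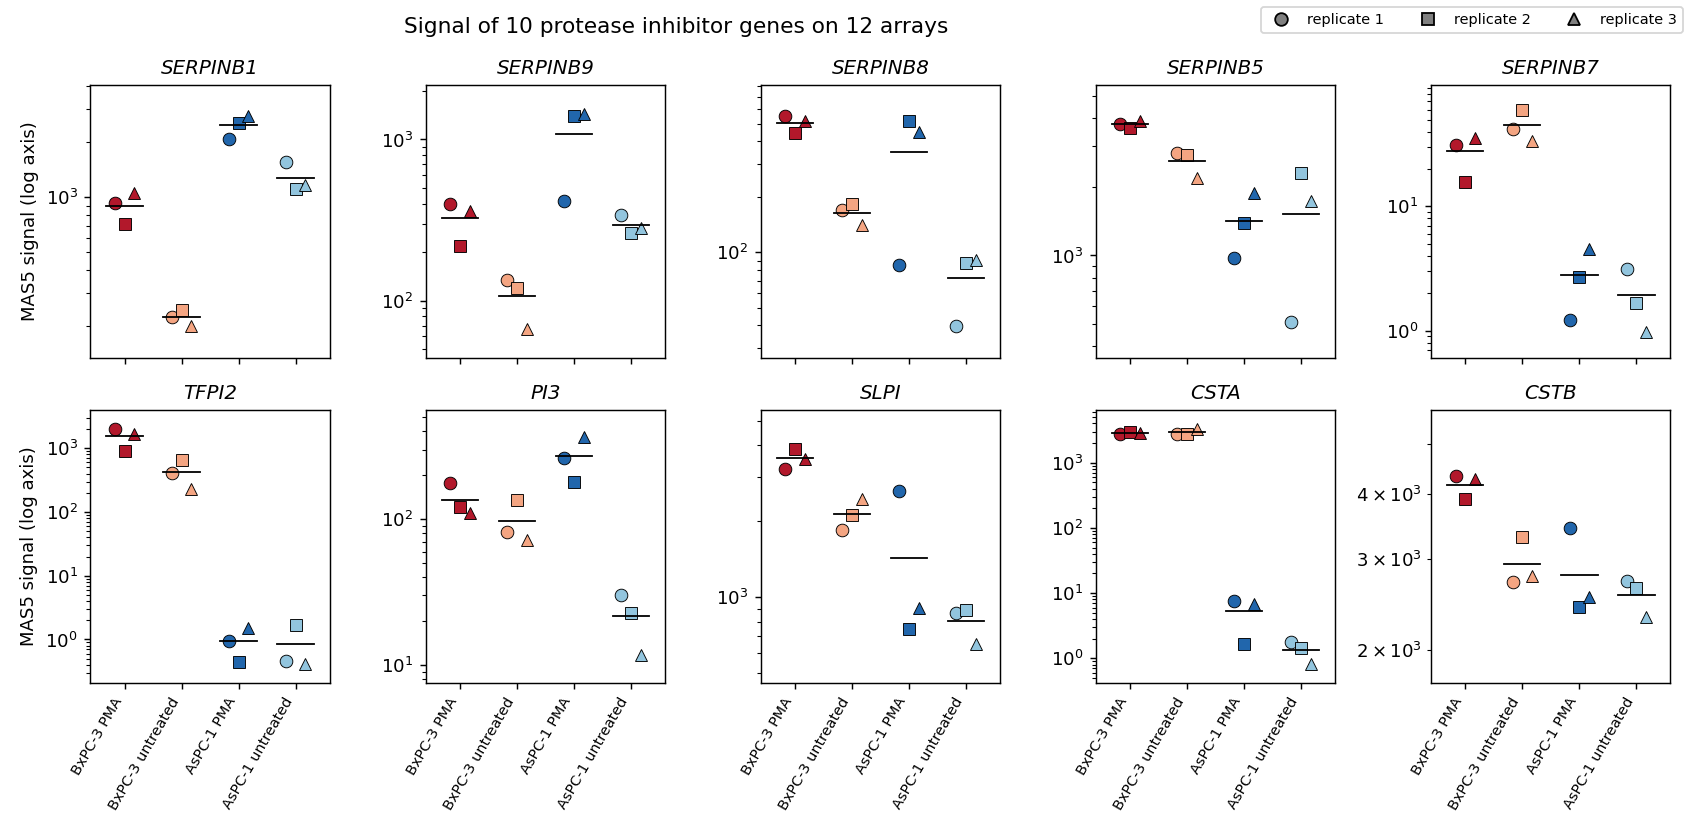
Signal of the 10 genes (MAS5 units, log axis, each panel with its own range) in the 4 groups; each point is 1 array, its shape the replicate, and the line the group mean. TFPI2, CSTA and SERPINB7 lie at the bottom of the scale on all 6 AsPC-1 arrays, and in AsPC-1 PMA replicate 1 (circle) SERPINB8 and SERPINB9 lie below the other PMA arrays while SLPI lies above them.

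The first question was which inhibitors respond to PMA in each line. In BxPC-3, SERPINB1 rose 3.95-fold, SERPINB9 3.0-fold and TFPI2 3.64-fold, and 3 of the 10 genes passed the test in all (limma, adjusted p under 0.05 over 16110 genes), all 3 upward, where 2.61% of all tested genes were called higher, 3.40% lower and 6.01% either way. In AsPC-1, PI3 rose 11.3-fold and SERPINB1 1.93-fold, 2 of 10, where 1.21% of all genes were called higher, 0.732% lower and 1.94% either way (195 higher of 313, and 200 higher of 263 with median centring). SERPINB1 was thus called in both lines. The median log2 change of the 10 genes was 0.64 in BxPC-3, against 0.0 over all genes tested, and 0.74 in AsPC-1, against -0.1. The groups did not overlap for 7 of the 10 genes in BxPC-3, all higher after PMA, where 39.0% of all genes did not overlap (17.0% higher), and for 3 in AsPC-1, where the share was 14.5% (6.06% higher). Because the 10 genes were chosen with earlier results of these data known, these contrasts with all genes are a description only.

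The number called moved with the arrays and the model used. The 4 groups share a single estimate of the spread. Leaving out an AsPC-1 array therefore does not move the BxPC-3 changes, and alters their calls only through that spread and the adjustment over all genes. In AsPC-1 the changes themselves also moved without PMA replicate 1, from 1.95 to 2.77 for SERPINB8 and from 1.67 to 2.26 for SERPINB9. That fit kept the untreated array of the same passage, the lowest of its group for SERPINB8 (39.54, against 87.48 and 90.91). Within the other AsPC-1 passages the SERPINB8 change was 2.51 and 2.28, so 2.77 partly reflects that untreated array. Without AsPC-1 PMA replicate 1, SLPI, CSTB and SERPINB8 also passed in BxPC-3 (6 of 10, with 15.1% of all genes called, 5.75% higher), and SERPINB8 and SERPINB9 also passed in AsPC-1 (4 of 10, with 19.7% of all genes called, 6.10% higher). Blocking by passage, 5 passed in BxPC-3 (10.4% of all genes called, 4.24% higher), with CSTB and SERPINB8 added. In AsPC-1 4 passed under that block (5.58% of all genes called, 2.74% higher), with SERPINB8 and SERPINB9 added.

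SERPINB1 inhibits elastase, cathepsin G and proteinase 3 of neutrophils and is known as monocyte/neutrophil elastase inhibitor. Its signal was 924.5, 710.1 and 1047 in BxPC-3 PMA replicates 1 to 3, against 223.8, 243.1 and 198.4 in untreated BxPC-3. In AsPC-1 it was 2069, 2544 and 2751 after PMA, against 1552, 1108 and 1159 untreated. Every PMA array lay above every untreated array of its line. The log2 change was 1.98 ± 0.19 in BxPC-3 (SE, n = 3 each, limma adjusted p = 9.33e-05) and 0.95 ± 0.19 in AsPC-1 (adjusted p = 0.0241). The AsPC-1 call was lost when untreated replicate 2 (0.86, adjusted p = 0.102) or 3 (0.89, adjusted p = 0.105) or PMA replicate 2 (0.92, adjusted p = 0.122) or 3 (0.86, adjusted p = 0.134) was left out. Of its other 3 probe sets, 2 were called higher in BxPC-3 (1.36 and 1.50) and did not pass in AsPC-1 (0.83 and 0.70). The third, whose mean signal was at most 22.6 in any group, was called higher in AsPC-1 (2.05) and not in BxPC-3 (0.63).

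SERPINB9 is the inhibitor of granzyme B, the death-inducing protease of cytotoxic lymphocytes. Its signal was 396.7, 217.1 and 358.2 in BxPC-3 PMA, against 133.6, 120.1 and 67.01 in untreated BxPC-3, with no overlap. The log2 change was 1.59 ± 0.42 (adjusted p = 0.0429). That call was near the threshold and was lost in 8 of the 12 fits that left out 1 array: each of the BxPC-3 untreated arrays (1.77, 1.70 and 1.29 without replicates 1, 2 and 3, adjusted p = 0.0781, 0.0881 and 0.189), each of the BxPC-3 PMA arrays (1.42, 1.85 and 1.49, adjusted p = 0.15, 0.0585 and 0.147) and AsPC-1 untreated replicates 2 and 3 (1.59 each, adjusted p = 0.0596 and 0.0615). With all arrays kept it was lost under median centring (1.53, adjusted p = 0.0516), with no filter on low signal (adjusted p = 0.0526) and without the eBayes trend (adjusted p = 0.0813). Its other 2 probe sets were both called higher in BxPC-3 (1.83 and 1.45).

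In AsPC-1, SERPINB9 had signals of 413.2, 1399 and 1439 after PMA, against 338.4, 263.8 and 283.5 untreated. The PMA arrays lay above the untreated ones, replicate 1 by little and replicates 2 and 3 by far. The log2 change was 1.67 ± 0.42 and did not pass (adjusted p = 0.0632). Without PMA replicate 1 it was 2.26 ± 0.29 (adjusted p = 9.78e-05), while blocking by passage gave 1.67 ± 0.38 (adjusted p = 0.0334).

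SERPINB8 inhibits furin and trypsin-like proteases. Its signal was 547.4, 446.7 and 518 in BxPC-3 PMA, against 170.5, 183.1 and 139.9 in untreated BxPC-3. It was 84.97, 513.9 and 453 in AsPC-1 PMA, against 39.54, 87.48 and 90.91 in untreated AsPC-1. The BxPC-3 groups did not overlap, and in AsPC-1 only PMA replicate 1 lay within the untreated range. The log2 change was 1.60 ± 0.53 in BxPC-3 (adjusted p = 0.092) and 1.95 ± 0.53 in AsPC-1 (adjusted p = 0.0835), and neither passed. Within passages the AsPC-1 change was 1.05, 2.51 and 2.28. Both changes passed once passage was a block (1.60 ± 0.27, adjusted p = 0.00527 in BxPC-3, and 1.95 ± 0.27, adjusted p = 0.00314 in AsPC-1), as they did without AsPC-1 PMA replicate 1 (1.60, adjusted p = 0.000897, and 2.77, adjusted p = 1.98e-05). A second, dimmer probe set had changes of 0.26 and -0.01 and passed in neither line.

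SERPINB5, maspin, is a non-inhibitory serpin studied as a tumour suppressor. Its signal was 3769, 3607 and 3876 in BxPC-3 PMA, against 2810, 2751 and 2184 in untreated BxPC-3, without overlap, and the log2 change of 0.55 ± 0.41 did not pass (adjusted p = 0.5). A second, dimmer probe set gave 1.34 ± 0.41 and did not pass (adjusted p = 0.077), while the mean of both passed (0.94, adjusted p = 0.0273). In AsPC-1 it was 972.4, 1382 and 1873 after PMA, against 513.6, 2298 and 1738 untreated. The array of passage 8 was the lowest of its group in both AsPC-1 conditions, and the change within passages ran from -0.73 to 0.92. The AsPC-1 change was 0.10 ± 0.41 (adjusted p = 0.936).

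SERPINB7 is a serpin of keratinocytes and kidney mesangial cells whose loss causes a palmoplantar keratoderma. It was dim in BxPC-3, with signals of 31.44, 15.76 and 35.81 after PMA, against 42.13, 59.39 and 33.29 untreated, and the groups overlapped. Its change of -0.68 ± 0.39 did not pass (adjusted p = 0.359). In AsPC-1 it stayed under the 40th percentile on all 6 arrays, with signals of 1.22 to 4.53 after PMA and 0.97 to 3.16 untreated, and no change can be read there.

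TFPI2 is a Kunitz inhibitor of plasmin and trypsin that is deposited in the extracellular matrix. Its signal was 2006, 896.6 and 1697 in BxPC-3 PMA, against 414.4, 648.1 and 230.7 in untreated BxPC-3. Each PMA array exceeded each untreated one, replicate 2 having the lowest PMA and the highest untreated signal, and within passages the log2 change was 2.27, 0.47 and 2.86. The fitted change was 1.87 ± 0.38 (adjusted p = 0.0113). It was lost without BxPC-3 untreated replicate 3 (1.48, adjusted p = 0.0666) and without PMA replicate 1 or 3 (at 1.63 with adjusted p = 0.066, at 1.75 with 0.0627). A second probe set, whose name carries no mark of cross-hybridisation to other transcripts, gave 1.53 and did not pass (adjusted p = 0.0785). In AsPC-1 the signal was 0.443 to 1.51 after PMA and 0.416 to 1.68 untreated, under the 40th percentile on all 6 arrays.

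**Figure D2:**
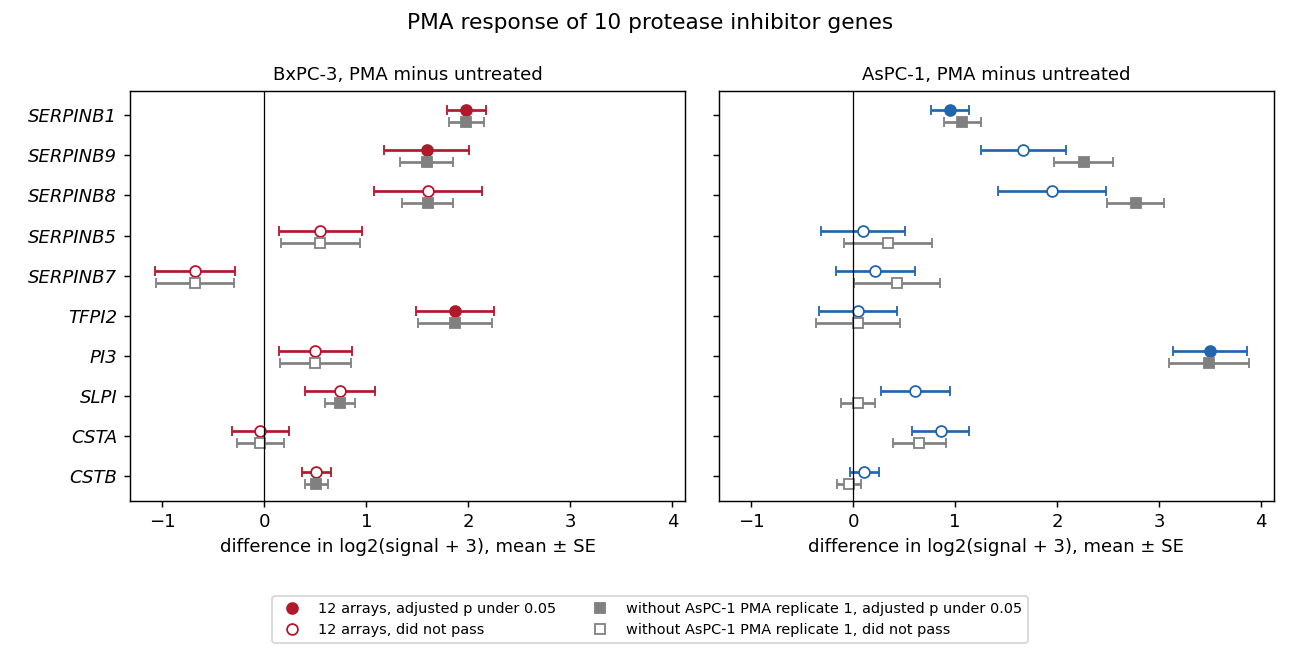
Difference in log2(signal + 3), PMA minus untreated, with its SE from limma, for the 10 genes in BxPC-3 and AsPC-1; filled symbols passed at an adjusted p under 0.05, and grey squares are the fit without AsPC-1 PMA replicate 1. PI3 stands at 3.50 in AsPC-1 and 0.50 in BxPC-3, and SERPINB8 and SERPINB9 pass in AsPC-1 only in the grey fit.

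The sequence before the start of the genes was set beside these changes, since AP-1, CREB/ATF and NF-kB are the factors best known to act below protein kinase C. RefSeq windows (GRCh38.p14) were at hand for 6 of the 10 genes in 8 windows, none of them for PI3, SLPI, CSTA or CSTB. The 250 bases upstream of each start were searched on both strands for the AP-1 site TGACTCA, the CRE site TGACGTCA and the NF-kB consensus. Of all 35116 windows, 4.2% held the AP-1 letters, 1.65% the CRE letters and 5.21% the NF-kB consensus, and no match overlapped another in the windows of these genes. SERPINB8 held an AP-1 match 22 to 28 bases before its start, and TFPI2 an NF-kB match 143 to 152 bases before its start. SERPINB1 and SERPINB9, called in BxPC-3, held none of the 3, and neither did SERPINB5. SERPINB7, which did not pass after PMA, held the AP-1 letters in 2 of its 3 windows and an NF-kB match in the third. A match in these windows is a description of the letters and no evidence of a bound site. The windows of the 4 genes with the largest BxPC-3 changes and, for contrast, 1 of SERPINB7 are given 5′ to 3′, with matches in capitals.
SERPINB8, chr18:63969831-63970080, plus strand: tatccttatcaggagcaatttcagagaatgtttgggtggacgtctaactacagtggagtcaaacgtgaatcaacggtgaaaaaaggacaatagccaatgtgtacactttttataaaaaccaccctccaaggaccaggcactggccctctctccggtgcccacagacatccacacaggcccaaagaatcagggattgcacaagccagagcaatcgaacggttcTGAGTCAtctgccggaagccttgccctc
TFPI2, chr7:93890754-93891003, minus strand: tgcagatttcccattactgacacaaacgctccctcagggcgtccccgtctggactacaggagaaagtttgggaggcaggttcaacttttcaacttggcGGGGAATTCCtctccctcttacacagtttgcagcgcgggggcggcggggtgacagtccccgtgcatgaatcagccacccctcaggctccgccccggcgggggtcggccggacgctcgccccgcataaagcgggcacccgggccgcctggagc
SERPINB1, chr6:2841864-2842113, minus strand: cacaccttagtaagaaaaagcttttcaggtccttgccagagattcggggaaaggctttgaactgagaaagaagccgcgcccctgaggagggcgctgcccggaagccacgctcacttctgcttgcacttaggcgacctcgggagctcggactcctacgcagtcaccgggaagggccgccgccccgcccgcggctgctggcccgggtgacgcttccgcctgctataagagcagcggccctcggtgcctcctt
SERPINB9, chr6:2903310-2903559, minus strand: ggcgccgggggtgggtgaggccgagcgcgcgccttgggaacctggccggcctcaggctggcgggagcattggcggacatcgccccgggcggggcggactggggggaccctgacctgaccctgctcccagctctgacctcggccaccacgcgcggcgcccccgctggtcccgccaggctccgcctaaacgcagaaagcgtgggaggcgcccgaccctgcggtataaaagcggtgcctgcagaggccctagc
SERPINB7, chr18:63775168-63775417, plus strand: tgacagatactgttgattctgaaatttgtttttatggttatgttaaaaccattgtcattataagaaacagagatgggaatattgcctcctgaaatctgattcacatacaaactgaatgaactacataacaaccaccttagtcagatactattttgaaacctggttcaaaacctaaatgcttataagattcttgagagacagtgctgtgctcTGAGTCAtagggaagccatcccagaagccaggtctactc

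PI3, elafin, is a secreted WAP-domain inhibitor of neutrophil elastase and proteinase 3. In AsPC-1 its signal was 264.9, 181 and 363.8 after PMA, against 30.09, 22.73 and 11.65 untreated. All 3 PMA arrays lay far above the untreated ones, and within passages the log2 change was 3.02, 2.84 and 4.65. The fitted change was 3.50 ± 0.36 (adjusted p = 0.00066), and 3.49 ± 0.39 without AsPC-1 PMA replicate 1. It was 2.91 to 3.63 over the alternatives that kept all arrays and passed in all of these but the fit with the AsPC-1 arrays alone (adjusted p = 0.0766). In BxPC-3 the signal was 176.2, 120.6 and 109.7 after PMA, against 81.75, 136.3 and 71.43 untreated. These groups overlapped, and the change of 0.50 ± 0.36 did not pass (adjusted p = 0.472). A second probe set gave 3.36 in AsPC-1 (adjusted p = 0.000891) and 0.77 in BxPC-3 (adjusted p = 0.267).

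SLPI, the secretory leukocyte protease inhibitor, blocks elastase and cathepsin G in mucosal secretions. Its signal was 3228, 3880 and 3527 in BxPC-3 PMA, against 1846, 2110 and 2441 in untreated BxPC-3. The groups did not overlap, the change was 0.74 ± 0.34 and it did not pass (adjusted p = 0.239). Leaving out AsPC-1 PMA replicate 1 it passed (0.74 ± 0.15, adjusted p = 0.00436), which belongs to the other line and enters through the shared spread. In AsPC-1 the signal was 2628, 746.9 and 905.7 after PMA, against 865.2, 885.6 and 651.2 untreated, so replicate 1 alone was high. The AsPC-1 change of 0.61 ± 0.34 (adjusted p = 0.409) was 0.05 ± 0.17 without that array.

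The stefins CSTA and CSTB inhibit the cathepsins B, H and L. CSTB had 4337, 3914 and 4273 in BxPC-3 PMA, against 2711, 3312 and 2787 in untreated BxPC-3. The groups did not overlap, and the change of 0.51 ± 0.14 missed the threshold (adjusted p = 0.0506). It passed in several alternatives, among them blocking by passage (adjusted p = 0.0278), and without AsPC-1 PMA replicate 1 (adjusted p = 0.00633), without AsPC-1 untreated replicate 1 (adjusted p = 0.0459) and without AsPC-1 PMA replicate 2 (adjusted p = 0.0471), and was 0.34 after quantile normalization (adjusted p = 0.246). A second, dimmer CSTB probe set was called higher, at 1.53 ± 0.30 (adjusted p = 0.0106), and the mean of both gave 1.02 (adjusted p = 0.0031). In AsPC-1 CSTB had 3444, 2425 and 2530 after PMA, against 2723, 2637 and 2323 untreated, overlapping groups with a change of 0.11 ± 0.14 (adjusted p = 0.752), and the second probe set gave 0.02.

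CSTA, also a cornified envelope protein of keratinocytes, had signals of 2778, 2914 and 2863 in BxPC-3 PMA, against 2752, 2783 and 3279 in untreated BxPC-3. The groups overlapped, and the change was -0.04 ± 0.28 (adjusted p = 0.96). In AsPC-1 CSTA lay under the 40th percentile on all 6 arrays, with signals of 7.558, 1.641 and 6.901 after PMA, against 1.777, 1.414 and 0.8276 untreated. The change there, 0.86 ± 0.28, did not pass (adjusted p = 0.135), except without PMA replicate 2 (1.24, adjusted p = 0.0207), and at this signal it has no firm size.

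The next question was how the lines differ in these genes. In untreated cells 7 of the 10 passed, 5 higher in BxPC-3 (PI3, SLPI, CSTA, SERPINB7, TFPI2) and 2 lower (SERPINB1, SERPINB9), where 32.7% of all genes were called, 17.0% higher and 15.8% lower. After PMA 8 of the 10 passed, 6 higher in BxPC-3 (SLPI, CSTA, CSTB, SERPINB5, SERPINB7, TFPI2) and again SERPINB1 and SERPINB9 lower, where 33.7% of all genes were called, 18.4% higher and 15.3% lower. CSTA, SERPINB7 and TFPI2 passed the filter through BxPC-3 alone, so the filter itself favoured a difference for them. Without them 2 of the genes higher in BxPC-3 remained untreated and 3 after PMA. The lines did not overlap for 9 of the 10 genes after PMA, against 43.5% of all genes, and for 8 untreated, against 50.9%. Both counts include CSTA, SERPINB7 and TFPI2, for which the filter favoured a difference, so the counts are raised relative to the shares of all genes. Without AsPC-1 PMA replicate 1, 40.9% of all genes were called in either line comparison, and blocking by replicate number gave 32.8% untreated and 33.8% after PMA.

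CSTA and TFPI2 separated the lines most. CSTA averaged 2852 ± 68.5 in BxPC-3 PMA cells and 5.37 ± 3.24 in AsPC-1 PMA cells (SD, n = 3 each), and 2938 ± 296 in untreated BxPC-3 and 1.34 ± 0.479 in untreated AsPC-1 cells. Set against the 40th percentile of the AsPC-1 arrays (8.28 to 9.68 after PMA, 8.95 to 9.52 untreated), CSTA was at least 316-fold higher in BxPC-3 after PMA and at least 317-fold higher untreated. TFPI2 was at least 161-fold higher after PMA and at least 42.8-fold higher untreated, reckoned in the same way. SERPINB7 was at least 2.89-fold higher in BxPC-3 after PMA and at least 4.73-fold untreated. These 3 genes were under the 40th percentile on all 6 AsPC-1 arrays, so their levels are given as a description, with no test.

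SERPINB1 and SERPINB9 ran the other way. SERPINB1 averaged 894 ± 170 in BxPC-3 PMA and 2454 ± 350 in AsPC-1 PMA cells, and 222 ± 22.4 in untreated BxPC-3 and 1273 ± 243 in untreated AsPC-1 cells. Even after PMA the BxPC-3 arrays stayed under the untreated AsPC-1 arrays, and the difference was -1.46 ± 0.19 after PMA (adjusted p = 4.07e-05) and -2.49 ± 0.19 untreated (adjusted p = 2.66e-07). SERPINB9 averaged 324 ± 94.6 in BxPC-3 PMA and 1084 ± 581 in AsPC-1 PMA cells, and 107 ± 35.2 in untreated BxPC-3 and 295 ± 38.7 in untreated AsPC-1 cells. The BxPC-3 PMA arrays overlapped the untreated AsPC-1 arrays. The difference was -1.58 ± 0.42 after PMA (adjusted p = 0.0103) and -1.49 ± 0.42 untreated (adjusted p = 0.0146). Its other 2 probe sets disagreed: 1 gave -1.65 after PMA and -1.74 untreated, both called lower, and the dimmer 1 gave -0.07 and -0.92 and passed in neither (adjusted p = 0.91 and 0.0834). The call after PMA was lost without BxPC-3 PMA replicate 2 (-1.31, adjusted p = 0.0544), and the untreated one without BxPC-3 untreated replicate 3 (-1.19, adjusted p = 0.0739).

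PI3 was called higher in BxPC-3 untreated, and after PMA its mean was lower there, without a call. After PMA it averaged 136 ± 35.7 in BxPC-3 and 270 ± 91.5 in AsPC-1 cells, groups that did not overlap, with a difference of -0.95 ± 0.36 that did not pass (adjusted p = 0.0557). Untreated, it averaged 96.5 ± 34.8 in BxPC-3 and 21.5 ± 9.28 in AsPC-1 cells, a difference of 2.05 ± 0.36 (adjusted p = 0.00055). The difference after PMA passed without AsPC-1 PMA replicate 2, without BxPC-3 PMA replicate 1 and without AsPC-1 untreated replicate 1 or 3 (adjusted p from 0.0309), the last 2 of which enter only through the shared spread and the adjustment over all genes, and its size without 1 array was -1.21 to -0.71. It also passed with a pseudocount of 16, after quantile normalization and with a filter at the 60th percentile (-0.89, -0.98 and -0.95, adjusted p = 0.0322, 0.042 and 0.0472). On the second PI3 probe set the groups after PMA overlapped, and the difference of -0.85 did not pass (adjusted p = 0.101). Untreated, that probe set was called higher in BxPC-3 at 1.74 (adjusted p = 0.00288).

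SLPI averaged 3545 ± 327 in BxPC-3 PMA and 1427 ± 1043 in AsPC-1 PMA cells, a difference of 1.54 ± 0.34 (adjusted p = 0.0032) that was 2.10 ± 0.17 without AsPC-1 PMA replicate 1. Untreated it averaged 2132 ± 298 in BxPC-3 and 801 ± 130 in AsPC-1 cells (1.41 ± 0.34, adjusted p = 0.00598). CSTB differed by 0.59 ± 0.14 after PMA (adjusted p = 0.00519) and by 0.19 ± 0.14 untreated, which did not pass (adjusted p = 0.325). SERPINB5 differed by 1.46 ± 0.41 after PMA (adjusted p = 0.0136) and by 1.01 ± 0.41 untreated (adjusted p = 0.0759). The untreated SERPINB5 difference was 0.36 without AsPC-1 untreated replicate 1 and 1.44 without replicate 2, where it passed (adjusted p = 0.0164), and it also passed with the replicate number as a block (adjusted p = 0.0492), after quantile normalization (1.11, adjusted p = 0.0468) and with the mean of both probe sets (1.72, adjusted p = 5.7e-05). The second SERPINB5 probe set, under the 40th percentile on all untreated AsPC-1 arrays, gave 3.11 ± 0.41 after PMA and 2.43 ± 0.41 untreated, both called higher. SERPINB8 did not pass in either condition, at 0.88 ± 0.53 after PMA (adjusted p = 0.229) and 1.22 ± 0.53 untreated (adjusted p = 0.0921). Without AsPC-1 PMA replicate 1 the SERPINB8 difference was 0.06 after PMA, and the untreated one passed (adjusted p = 0.00149).

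**Figure D3:**
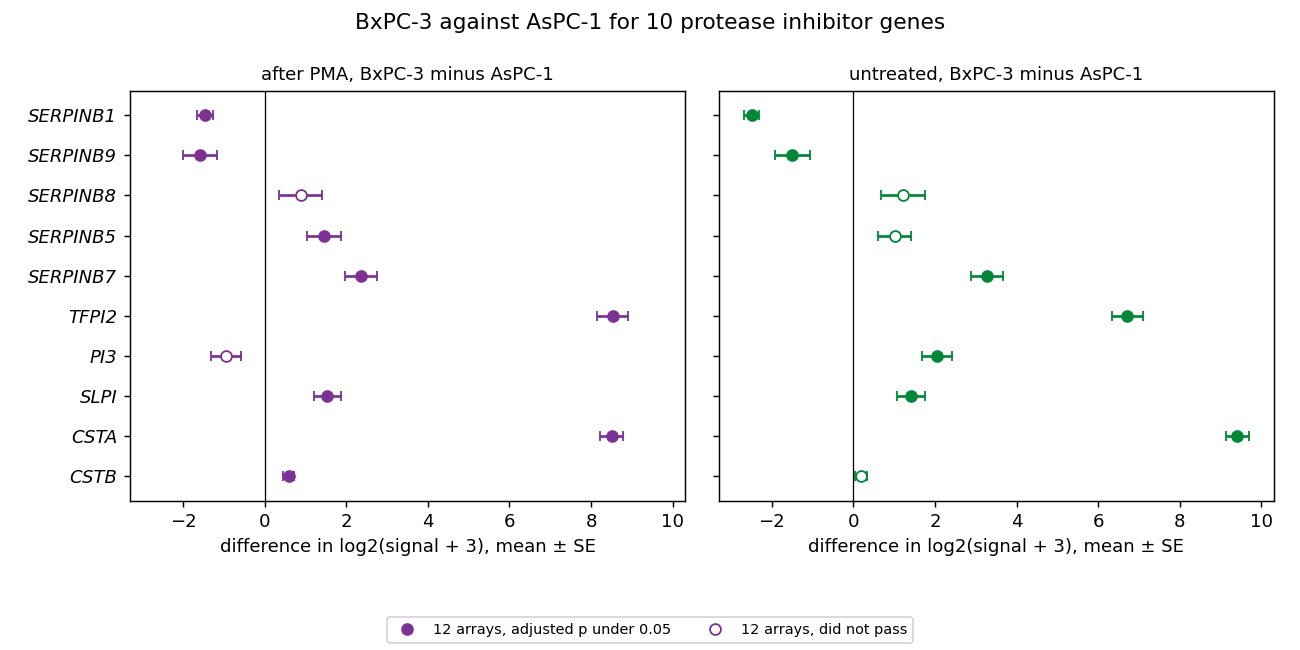
Difference in log2(signal + 3), BxPC-3 minus AsPC-1, with its SE from limma, after PMA (left) and untreated (right); filled symbols passed at an adjusted p under 0.05. CSTA and TFPI2 lie between 6.71 and 9.41, values that depend on the pseudocount because AsPC-1 is near the bottom of the scale (CSTA, TFPI2 and SERPINB7 entered the test through BxPC-3 alone), while SERPINB1 and SERPINB9 lie below 0 in both panels.

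The PMA responses of the lines were then compared directly. Of the 10 genes only PI3 passed the test of the difference, where 0.497% of all genes were called, 0.310% with a larger and 0.186% with a smaller response in BxPC-3. Its response, BxPC-3 minus AsPC-1, was -3.0 ± 0.51 on the log2 scale (adjusted p = 0.0227). On its second probe set the difference was -2.59 ± 0.52 and did not pass (adjusted p = 0.0615). PI3 was also the only one without AsPC-1 PMA replicate 1 (4.49% of all genes called) and with passages as blocks (0.795%). The call was lost without AsPC-1 untreated replicate 2, AsPC-1 PMA replicate 3, BxPC-3 untreated replicate 1 or 2 or any 1 of the BxPC-3 PMA arrays, with differences of -3.20 to -2.73 and adjusted p of 0.0506 to 0.0955. SERPINB1, called in both lines, had a larger response in BxPC-3 by 1.03 ± 0.26, which did not pass (adjusted p = 0.155). The difference for TFPI2 was 1.82 ± 0.53 (adjusted p = 0.255), with AsPC-1 near the bottom of the scale in both conditions. For SERPINB8 and SERPINB9 it was -0.35 ± 0.74 and -0.09 ± 0.60 (adjusted p = 0.943 and 0.99), and -1.17 ± 0.38 and -0.68 ± 0.38 without AsPC-1 PMA replicate 1 (adjusted p = 0.107 and 0.37). That fit kept the untreated array of the same passage, on which SERPINB8 was the lowest of its group. The other differences did not pass either: 0.13 ± 0.49 for SLPI (adjusted p = 0.976), -0.90 ± 0.39 for CSTA (0.524), 0.40 ± 0.20 for CSTB (0.605), 0.45 ± 0.58 for SERPINB5 (0.895) and -0.90 ± 0.55 for SERPINB7 (0.697).

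Other inhibitors and the proteases they act on were counted from 5 lists. Of 5 tested clade B serpins outside the 10 genes, 1 fell and none rose in BxPC-3: SERPINB13, an inhibitor of cathepsins K and L, averaged 530 ± 65.6 after PMA and 1729 ± 352 untreated (-1.69 ± 0.29, adjusted p = 0.00561). Its probe set is marked as matching more than a single transcript, and an unmarked one gave -1.10 and no call (adjusted p = 0.276). In AsPC-1 limma called 0 of these 5, and 0 at an unadjusted p under 0.05. Of 6 other cystatins limma called 0 in either line, also 0 at an unadjusted p under 0.05. A list of 16 other inhibitors, mostly of secreted serine protease inhibitors but also holding LXN (latexin, a cytosolic inhibitor of carboxypeptidases), had 1 gene higher in each line. These were SPINT2, a Kunitz inhibitor of hepatocyte growth factor activation, in BxPC-3 (2549 ± 71.7 after PMA and 1554 ± 124 untreated, 0.72 ± 0.13, adjusted p = 0.00604) and the WAP-domain gene WFDC3 in AsPC-1 (106 ± 32.1 after PMA and 32.9 ± 6.74 untreated, 1.57 ± 0.33, adjusted p = 0.0322).

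Among the proteases, 1 of 12 lysosomal cysteine proteases rose in each line. Cathepsin B (CTSB) averaged 1602 ± 138 in BxPC-3 PMA and 976 ± 46.1 in untreated BxPC-3 cells (0.71 ± 0.15, adjusted p = 0.0119), and cathepsin L (CTSL) 702 ± 114 in AsPC-1 PMA and 370 ± 31.0 in untreated AsPC-1 cells (0.91 ± 0.18, adjusted p = 0.026). Of 21 tested genes of a serine protease list, which also held the cofactor F3 (tissue factor, not itself a protease), 1 rose in each line: ST14, the membrane protease matriptase, averaged 460 ± 30.7 in BxPC-3 PMA and 118 ± 12.2 in untreated BxPC-3 cells (1.94 ± 0.32, adjusted p = 0.00334), and the kallikrein KLK10 5548 ± 1245 in AsPC-1 PMA and 2454 ± 189 in untreated AsPC-1 cells (1.16 ± 0.16, adjusted p = 0.00276). The difference of ST14 responses, BxPC-3 minus AsPC-1, was 2.57 ± 0.45 (adjusted p = 0.026), a call kept under 12 of 22 alternatives (1.42 to 2.85, adjusted p up to 0.208), and 1.42 with the mean of all probe sets. Of the list genes called after PMA, SPINT2 and the BxPC-3 change of ST14 kept their call under all 23 alternatives and KLK10 under 22, its size reaching 3.34 on another probe set. CTSB kept it under 17 (adjusted p up to 0.128), and WFDC3 and CTSL under 14 (adjusted p up to 0.248 and 0.279), so the rises of these 3 depended on the setting or on single arrays. ELANE, which encodes the neutrophil elastase that SERPINB1, PI3 and SLPI inhibit, was above the 40th percentile on 2 of 12 arrays and was not tested. The medians of the 5 lists were -0.40, 0.26, 0.55, 0.14 and 0.39 in BxPC-3, in the order given, against 0.64 for the 10 genes. In AsPC-1 they were 0.28, 0.03, 0.07, 0.18 and 0.27, against 0.74 for the 10 genes. With AsPC-1 PMA replicate 1 left out, the AsPC-1 medians were 0.42, -0.21, 0.04, 0.19 and 0.26, against 0.54.

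Between untreated lines, 3 of the 5 other clade B serpins were higher in BxPC-3 and none lower, among them SERPINB3, an inhibitor of cysteine proteases, at 1846 ± 512 in BxPC-3 and 10.1 ± 4.48 in AsPC-1 (7.17 ± 0.32, adjusted p = 1.91e-09). Of the 16 genes of the list with LXN, 3 were higher and 7, LXN included, lower in BxPC-3. LXN averaged 74.0 ± 6.05 in BxPC-3 and 2448 ± 286 in AsPC-1 (-4.99 ± 0.34, adjusted p = 9.76e-08), and SERPINE2, protease nexin 1, 911 ± 99.0 in BxPC-3 and 5524 ± 460 in AsPC-1 (-2.60 ± 0.15, adjusted p = 2.19e-08). Of 6 cystatins 1 was higher in BxPC-3, of 12 cysteine proteases 3 were higher and 4 lower, and of the 21 genes of the serine protease list 4 were higher, F3 among them (1.16, adjusted p = 0.000656), and 10 lower. SERPINB4 among the serpins, and TMPRSS4, KLK6 and TMPRSS2 on the protease list, entered the test through 1 line alone.

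**Figure D4:**
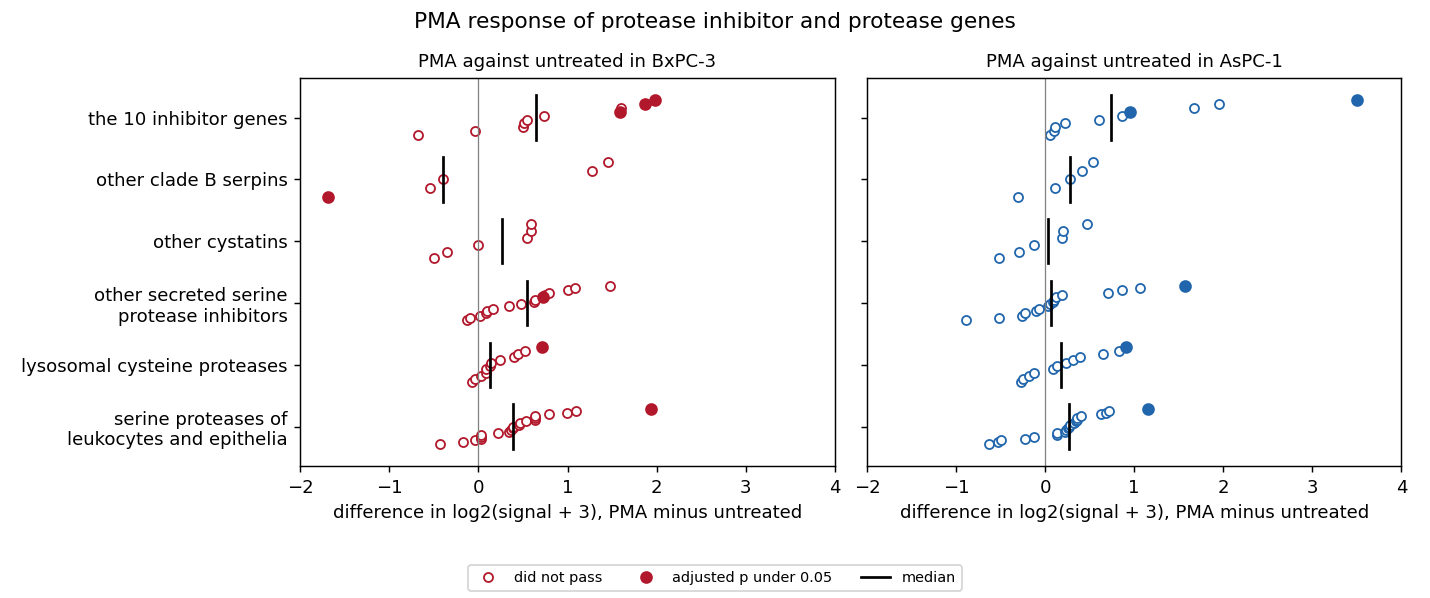
Difference in log2(signal + 3), PMA minus untreated, for each tested gene of the 10 inhibitor genes and of 5 related lists, in BxPC-3 (left) and AsPC-1 (right); 1 point is 1 gene, filled where it passed, and the black line is the list's median; LXN and F3 are held in the lists of secreted inhibitors and serine proteases. The 10 inhibitor genes have medians of 0.64 and 0.74 (the latter 0.54 without AsPC-1 PMA replicate 1), and each other list has at most 1 filled point per line.

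Genes whose profile over the 12 arrays came closest to those of the inhibitors called after PMA were found by the root mean square difference of log2 values, after each gene's own mean was taken off. SERPINB9, whose log2 values had an SD of 1.23, lay nearest to SPRY2 (0.26), NDRG1 (0.30) and ABTB2 (0.32), all of which had positive changes in both lines (1.12, 1.29 and 1.63 in BxPC-3, and 1.77, 1.38 and 1.83 in AsPC-1). Near genes were picked by likeness over these same arrays, so a shared direction follows from the choice. SERPINB1, with an SD of 1.27, lay nearest to CDC42EP2 (0.33), CD55 (0.33) and DCUN1D3 (0.37). PI3, with an SD of 1.34, had no neighbour closer than FCMR (0.68), SGK1 (0.70) and AADACP1 (0.74). TFPI2, with an SD of 3.89 that mostly reflects the gap between the lines, lay nearest to FST (0.52), SPRR1B (0.57) and TMEM45A (0.67), of which FST, the activin antagonist follistatin, had a change of 1.88 in BxPC-3.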

How the data were processed

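Per the labels, total RNA of 12 cultures was hybridised to Affymetrix arrays. The authors deposited signal intensity on a linear scale, 54675 probe sets by 12 arrays, made with MAS5 per the submitters' processing notes, which name no version. The array mean, with 2% trimmed at each end, was 100.014 to 100.018 on every array, so the arrays share a scale and were not normalized further. Detection calls were not used here, so low signals carry no test for presence. Precision is limited by having 3 arrays a group.

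Values were turned into log2(signal + 3), and changes are on that scale, which understates those of dim genes. After leaving out 62 control probe sets, 41091 had 1 symbol (1801 several, 11721 none; not named), 41037 of them found by Entrez ID in the reference gene table (GRCh38.p14), with 0 symbols updated. Among probe sets of each of 19775 genes the brightest probe set was kept, and 16110 genes entered the test, those exceeding an array's 40th percentile, which lay between 8.18 and 10.2, on 3 or more arrays. Group means over all 12 arrays were fitted with limma 3.58.1 in R 4.3.3 (8 residual degrees of freedom, eBayes with trend, Benjamini-Hochberg, two-sided). With 3 arrays against 3, the smallest exact p is 0.1. An "at least" fold sets the brighter group against the 40th percentile of the dimmer arrays.

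Tested on simulated data of the BxPC-3 PMA comparison (16110 genes), the model found 24% of 2-fold and 69% of 4-fold changes. Of its calls 5.3% were false, and it made 0 calls where nothing changed. The simulated noise was independent between genes and arrays, with no outlying array, passage effect or difference between lines. These rates may therefore not hold for the real arrays. Replicate numbers pair treated and untreated arrays because they share a passage, per the labels; the correlation of their deviations from group means was -0.129 to -0.054 over the BxPC-3 pairs and 0.16 to 0.416 over the AsPC-1 pairs. The 10 genes and the 5 lists were chosen with earlier results of these data known. All 10 are named in every comparison; of a list, up to 4 genes past the threshold, and for each of the 10 genes called after PMA the 3 nearest genes. SERPINB2, SERPINB6, SPINK5 and CD68 were listed and not analysed here; SERPINB11, CST7, CSTL1, WFDC5, SERPINA5, ELANE, GZMA, KLK14 and F10 were under the filter. Alternatives were other pseudocounts, scalings, filters and probe set rules, eBayes without trend, a fit to only the arrays compared, a replicate block, calls of at least 2-fold, and leaving out each array. Figures were drawn with matplotlib 3.10.9.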

Additional observations from a re-analysis of the deposited data

Results flagged for a closer look

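PI3 is listed because its PMA response differed between the lines in limma's test of that difference. The response on the log2 scale, BxPC-3 minus AsPC-1, was -3.0 ± 0.51 (adjusted p = 0.0227), with changes of 0.50 in BxPC-3 and 3.50 in AsPC-1. It did not pass on the gene's second probe set (-2.59 ± 0.52, adjusted p = 0.0615). The change within passages was positive in 2 of 3 passages of BxPC-3 and in 3 of 3 of AsPC-1. Groups of 3 arrays are too small for a test of single outlying arrays.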

How the results depend on the processing

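Most values stayed on the same side of the threshold, a count that includes results never called. Over the 10 genes and 5 comparisons, 513 of 540 values from settings with all arrays and 562 of 600 values without 1 array stayed on the same side of the threshold in the same direction, and no called change reversed sign. Several PMA calls were less stable than these totals. In the 12 fits without 1 array, SERPINB9 kept its BxPC-3 call in 4, TFPI2 in 9 and SERPINB1 in 12. The AsPC-1 call was kept in 8 for SERPINB1 and in 12 for PI3, and the call for the PI3 difference of responses in 5. The number of genes called in BxPC-3 after PMA, 3, was 5 with the mean of all probe sets (4.49% of all genes called), 7 with the BxPC-3 arrays alone (22.2%) and 5 with the replicate block (10.4%), and 1 to 6 without 1 array (2.05% to 15.1%). The number in AsPC-1, 2, was 4 with the replicate block (5.58%), 1 without the trend (0.751%), 1 with a 2-fold minimum (1.54%) and, by limma, 0 with the AsPC-1 arrays alone (4 at an unadjusted p under 0.05, and 0 of all genes called), and 1 to 4 without 1 array (0.372% to 19.7%). These counts moved with those of all genes in most of these settings and are not read as changes particular to the 10 genes. The counts between lines stayed within 1.5 times of 7 and 8, with the replicate block too (8 and 8). The count for the difference of responses, 1, was 1 with the replicate block and 0 to 1 without 1 array, the unadjusted p of PI3 staying at or under 0.000224. Within a line the block pairs arrays by passage, and it called CSTB and SERPINB8 as well in BxPC-3 and SERPINB8 and SERPINB9 in AsPC-1. Between the lines, which share no passage, it goes by replicate number alone, and it called SERPINB5 as well in untreated cells. No call was lost with either block. The SERPINB13 difference after PMA between lines, 5.04 higher in BxPC-3, was -0.95 on a probe set without a mark of sharing, so it is not settled; the cause was not tested. Dim signals limit CSTA, SERPINB7 and TFPI2 in AsPC-1.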

Other observations

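The clade B serpins lie in 2 groups in the reference gene order, SERPINB1, SERPINB9 and SERPINB6 on chromosome 6 and 10 genes on chromosome 18. Both chromosome 6 genes analysed, SERPINB1 and SERPINB9, were lower in BxPC-3 than in AsPC-1 and had positive PMA changes in both lines (1.98 and 1.59 in BxPC-3, 0.95 and 1.67 in AsPC-1). Along chromosome 18 the order was SERPINB5, SERPINB12, SERPINB13, SERPINB4, SERPINB3, SERPINB11, SERPINB7, SERPINB2, SERPINB10 and SERPINB8. In untreated cells SERPINB13, SERPINB4, SERPINB3 and SERPINB7 in the middle of that order were higher in BxPC-3 (7.15, 5.60, 7.17 and 3.27, with SERPINB13 at 0.94 and no call on a probe set without a mark of sharing). SERPINB4, SERPINB7 and SERPINB10 entered the test through BxPC-3 alone, so the filter itself favoured a difference for them. SERPINB3 and SERPINB13 averaged 10.1 and 9.57 in untreated AsPC-1, near the 40th percentile of those arrays (8.95 to 9.52), so the sizes are not firm. SERPINB12 and SERPINB10 differed by -0.94 and 1.03 and did not pass. SERPINB5 and SERPINB8 at its ends differed by 1.01 and 1.22 and did not pass, although a second SERPINB5 probe set was called higher at 2.43 (adjusted p = 0.00047), so no contrast between the middle and the ends is drawn. In BxPC-3 the PMA changes of the same 4 middle genes were -1.69, -0.54, -0.40 and -0.68, of which SERPINB13 alone passed, and those of SERPINB12, SERPINB10 and SERPINB8 were 1.27, 1.45 and 1.60, none of which passed. SERPINB12 averaged 11.4 after PMA and 1.94 untreated there, and SERPINB10 29.2 and 11.2, so both are changes of dim signals. Neighbouring genes were not tested as a group.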
